A study of Mus musculus with 13 samples.

Results

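The genes of the interleukin-33 (IL-33) axis were compared in parametrial white adipose tissue (pmWAT), the gonadal fat of female mice, from a study of adipocyte lamin A/C loss. The members were 10 genes, of 33618 in the count table, picked by symbol: the alarmin IL-33 (Il33), its receptor ST2 (Il1rl1), the lymphocyte transcription factors Gata3 and Foxp3, the effector cytokines Il5, Il13 and Areg, and the surface receptors Il7r, Klrg1 and Icos. Whole tissue was collected from 13 mice, 1 library each, 2 weeks after tamoxifen. All mice carried Lmna alleles with exons 10 and 11 between loxP sites and were injected with tamoxifen at 50 mg/kg on 5 days at 12 to 14 weeks of age. The 7 libraries labelled fl/fl came from Lmna fl/fl mice, which the methods describe without a Cre, and the 6 labelled iADKO from Lmna fl/fl mice with Adipoq-CreERT2 +/-. This transgene acts in cells that express Adipoq, the adipocyte gene for adiponectin, so recombination is limited to 1 cell type of a mixed tissue, and no group controlled for the Cre itself.

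IL-33 is a nuclear cytokine that stromal cells hold ready and release when they are damaged. In fat it is made mainly by stromal and mesothelial cells and signals through ST2 and its partner IL-1RAP on group 2 innate lymphoid cells (ILC2s), on a tissue population of regulatory T cells (Tregs), and on mast cells. ILC2s depend on GATA3 and on IL-7, and answer IL-33 with IL-5 and IL-13, which sustain eosinophils and alternatively activated macrophages. Adipose Tregs are defined by FOXP3 and often carry ST2, KLRG1 and ICOS. The Il1rl1 gene gives both the membrane receptor and a shorter soluble form that binds IL-33 without signalling, and gene-level counts pool both forms.

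Of the 10 members, 4 were higher in libraries labelled iADKO, 0 were lower, 3 were tested and did not pass, and 3 had too few counts to test. Over the 16753 genes tested, 14.1% were called higher and 16.3% lower (edgeR's quasi-likelihood test, Benjamini-Hochberg adjusted p under 0.05). The 4 were Il7r, Foxp3, Klrg1 and Il1rl1, with folds of 1.86, 1.77, 1.56 and 1.41. Among the 7 tested members the log2 fold changes were all above 0, with a median of 0.64, beside a median of 0.03 over all genes tested. These 7 passed a filter on low counts, so they do not stand for all 10. The groups overlapped in all 7, while over all genes 2.71% lay wholly higher and 3.93% wholly lower in libraries labelled iADKO. Il33 and Il1rl1 were named by the study, in part from these libraries, and the 10 genes were put together with results known, so the counts are a description. As the tissue was sequenced in bulk, more cells of a type and more RNA per cell cannot be told apart.

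The windows upstream of the 4 members called higher are shown as a description, and shared control of these genes was not tested. Each is 250 bases that end at the base before a transcript start in GENCODE vM39, on GRCm39, read from the plus strand of the genome for Il1rl1 and Foxp3 and from the minus strand for Il7r and Klrg1. Il1rl1 is shown at its canonical start (chr1:40478537-40478786) and at its distal start (chr1:40468480-40468729). The other windows are chrX:7445658-7445907 for Foxp3, chr15:9529922-9530171 for Il7r and chr6:122259915-122260164 for Klrg1. Capitals mark GATAA, the core letters bound by GATA factors, or TTATC, the same letters read from the other strand.
Il1rl1 canonical start: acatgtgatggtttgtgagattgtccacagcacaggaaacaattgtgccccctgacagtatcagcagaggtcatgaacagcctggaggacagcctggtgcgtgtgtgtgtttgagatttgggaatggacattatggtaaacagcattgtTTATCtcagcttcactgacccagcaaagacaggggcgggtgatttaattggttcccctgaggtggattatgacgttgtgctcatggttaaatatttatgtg
Il1rl1 distal start: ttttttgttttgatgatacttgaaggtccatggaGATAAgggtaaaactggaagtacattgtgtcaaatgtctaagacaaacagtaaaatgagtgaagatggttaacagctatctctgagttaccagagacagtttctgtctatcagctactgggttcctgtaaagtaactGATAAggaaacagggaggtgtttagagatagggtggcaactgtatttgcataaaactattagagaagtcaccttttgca
Foxp3: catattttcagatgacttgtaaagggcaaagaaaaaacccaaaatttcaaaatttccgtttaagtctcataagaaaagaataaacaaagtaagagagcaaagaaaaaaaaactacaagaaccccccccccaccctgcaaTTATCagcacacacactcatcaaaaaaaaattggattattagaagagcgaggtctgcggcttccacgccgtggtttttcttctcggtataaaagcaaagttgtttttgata
Il7r: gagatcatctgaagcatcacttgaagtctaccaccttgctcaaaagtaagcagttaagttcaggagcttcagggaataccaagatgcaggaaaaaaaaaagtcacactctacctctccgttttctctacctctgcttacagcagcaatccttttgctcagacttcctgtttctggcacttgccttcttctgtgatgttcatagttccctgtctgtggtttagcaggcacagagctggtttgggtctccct
Klrg1: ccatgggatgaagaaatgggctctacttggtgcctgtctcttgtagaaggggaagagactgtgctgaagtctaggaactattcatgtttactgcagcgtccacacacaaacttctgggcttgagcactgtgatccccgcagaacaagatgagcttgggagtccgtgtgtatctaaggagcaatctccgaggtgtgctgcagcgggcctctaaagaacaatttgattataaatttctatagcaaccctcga
GATAA stood in 3 of these 5 windows, at 2 places at the distal Il1rl1 start and once each at the canonical Il1rl1 start and in Foxp3. It stood in 22.3% of 21593 windows of the same length upstream of the canonical starts of protein-coding genes. As 2 of the 5 windows belong to Il1rl1, and its distal start is not canonical, the 2 shares are not directly comparable. TGANTCA, the AP-1 letters, stood in 0 of the 5 and in 6.14% of all windows, and the NF-kappaB consensus in 0 of the 5 and in 1.47%. Both strands were searched, and a match describes letters only.

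Between 18854223 and 19776491 reads were counted per library, and the totals of the groups overlapped. Lmna itself, the targeted gene, was not lower in libraries labelled iADKO, at 96.7 CPM ± 11.5 (SD, n = 6) beside 84.7 ± 7.51 (SD, n = 7). Its log2 fold change was 0.19 ± 0.08 (SE, adjusted p = 0.0785, edgeR). Counts per gene pool exons inside and outside the deletion and reads from all cell types, so they do not check the labels, and each direction given here rests on those labels. CPM are counts scaled by library size after TMM normalization. In 5 libraries (fl/fl 3 and 6 and iADKO 3, 5 and 6) Krt5, a keratin of stratified epithelium, stood above 1 CPM, at 15.0, 7.40, 15.5, 19.5 and 97.7. It was at most 0.0467 in the other 8. Upk2, a gene of the bladder lining that was looked up after its values were seen, was above 0 in the same 5 libraries, at 4.97, 1.99, 4.47, 7.93 and 30.0 CPM. The comparison was therefore also made without these 5, an alternative chosen after seeing the data that leaves 5 libraries against 3. It called 2.8% of genes higher and 6.83% lower, and 1 member, Foxp3. Other fits called 15% higher and 19.1% lower (DESeq2), 4.83% and 7.09% (no filter on low counts), and 13.4% and 17.6% (limma on rlog values). With the range of animal numbers as a block the shares were 4.68% and 7.17%. With the replicate number as a block, without fl/fl 7, which has no partner, they were 14.3% and 14.7%. The numbers in the library names were taken as animal numbers, and the ranges were cut from them here, as the labels give no such grouping.

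Il33, the ligand, was well expressed and did not differ by the test. Libraries labelled fl/fl ran from 34.4 CPM through a median of 44.0 to 63.4, and those labelled iADKO from 34.6 through 54.6 to 64.4. The ranges covered nearly the same span, and 1 iADKO library lay above all fl/fl libraries. The gene (ENSMUSG00000024810, chr19:29902483-29938933, plus strand) had a log2 fold change of 0.17 ± 0.17 (SE, adjusted p = 0.469, edgeR; exact two-sided permutation p = 0.353). The difference in mean log2 CPM was -0.15 among fl/fl 4 and 5 and iADKO 4 and 6, and 0.59 among fl/fl 1 to 3 and iADKO 1 and 2. These are the 2 ranges of animal numbers, cut here from the numbers in the library names, that hold both labels. For Il33 they went in opposite directions. Mesothelial markers, which mark cells that cover the fat pad and are a source of IL-33, had 0 of 9 genes called, and their summed level ran from 419 to 910 CPM and from 433 to 1067 CPM. Of the 9 adipose progenitor markers 1 was higher, beside 14.1% of all genes tested. This was Icam1, an adhesion molecule (log2 fold change 0.38, adjusted p = 0.0380, edgeR), and it was no longer called without most single libraries. The part of these cells in the Il33 level was not tested. The study lists Il33 and Il1rl1 among inflammation genes that overlapped between this tissue and Lmna-knockout mouse embryonic fibroblasts. Its text does not state what counted as changed in this tissue, and by the test used here Il33 did not pass.

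Il1rl1, the receptor gene, rose. Its level was 8.51 CPM in the lowest fl/fl library, 12.7 at the median and 13.9 in the highest, and 13.9, 16.6 and 22.1 in libraries labelled iADKO. Fl/fl 7 and iADKO 5 met at 13.9, and the other 5 iADKO libraries lay above every fl/fl library. With means of 12.1 ± 1.86 (SD, n = 7) and 17.1 ± 2.91 (SD, n = 6), the log2 fold change was 0.49 ± 0.12 (SE, adjusted p = 0.00861, edgeR; exact permutation p = 0.00117). The gene (ENSMUSG00000026069, chr1:40468730-40504575, plus strand) was higher in both animal-number ranges, by 0.58 and 0.47 in log2 CPM. Its call held with each of the 13 libraries left out, with log2 fold changes from 0.41 to 0.55. Without the 5 libraries with Krt5 the log2 fold change was 0.54, and the call was lost (adjusted p = 0.0810, edgeR).

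Il1rl1 is also a mast cell gene. Of 10 mast cell markers 4 were higher, 0 lower and 6 did not pass, beside 14.1% higher and 16.3% lower over all genes tested. The 4 were the protease genes Cma1 (7.03 ± 1.70 to 13.1 ± 2.06 CPM, log2 fold change 0.90), Mcpt4 (0.88), Cpa3 (0.67) and Tpsb2 (0.64). Kit, the receptor of stem cell factor and the most abundant marker of the list in fl/fl, went the other way without passing, from 37.8 ± 22.7 to 25.1 ± 5.14 CPM (-0.59, adjusted p = 0.138, edgeR). The transcription factor Gata2 (0.23, adjusted p = 0.203) and the histamine enzyme gene Hdc (0.64, adjusted p = 0.168) did not pass either, and these 3 are named after their values were seen. The summed level of the list was 83.6 to 148 CPM with the label fl/fl and 100 to 158 with the label iADKO. Without the 5 libraries with Krt5, 0 of the 10 were called. When the mean of the mast cell markers was subtracted in log2 CPM, the Il1rl1 difference became -0.04 (exact permutation p = 0.740, adjusted 0.826 over 7 such comparisons). Against the T cell markers it became 0.04 (exact permutation p = 0.733, adjusted 0.826). Of the 7 comparisons of a member with a marker list, chosen after seeing the data, none passed. They compare levels across a whole tissue, and the part of each cell type in the Il1rl1 level was not tested.

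Gata3, the transcription factor of ILC2s and of type 2 helper T cells, had the largest estimate and the widest spread. The fl/fl libraries held 1.72 to 4.45 CPM with a median of 2.21, and the iADKO libraries 2.19 to 17.3 with a median of 3.77. In the second group 4 libraries lay within the fl/fl range, and iADKO 5 and 6 stood above it at 7.07 and 17.3. The log2 fold change of this gene (ENSMUSG00000015619, chr2:9861889-9894845, minus strand) was 1.23 ± 0.46 (SE), and it did not pass (adjusted p = 0.0607, edgeR; exact permutation p = 0.0711). It passed in DESeq2, with a log2 fold change of 1.22 (adjusted p = 0.0207), a test that called more genes in each direction over the whole table (15% and 19.1%, against 14.1% and 16.3%). Without iADKO 6 the log2 fold change was 0.57, and without the 5 libraries with Krt5 it was 0.28 (adjusted p = 0.438, edgeR).

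The 2 libraries with the most Gata3 were those with the most Krt5. Gata3 is expressed in the urothelium and other epithelia too, and iADKO 6, with 17.3 CPM of Gata3, held 97.7 of Krt5, while iADKO 5 held 7.07 and 19.5. The highest Gata3 value in fl/fl, 4.45, was in fl/fl 3, which also held the most Krt5 of its group, 15.0. The summed level of 7 epithelial markers, with Krt5 among them, was 11.8 to 54.5 CPM under the label fl/fl and 23.2 to 271 under iADKO. Krt5 did not pass the filter on low counts. Of the 6 markers tested 2 were higher, the keratins Krt18 (log2 fold change 1.44, adjusted p = 0.0444, edgeR) and Krt8 (1.12, adjusted p = 0.0430, edgeR). Neither Krt18 nor Krt8 was called without iADKO 6 (0.67 and 0.62) or without any 1 of 8 other libraries (fl/fl 1, 2, 4, 5, 6 or 7 or iADKO 3 or 5). What part these cells had in the Gata3 level was not tested.

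**Figure D1:**
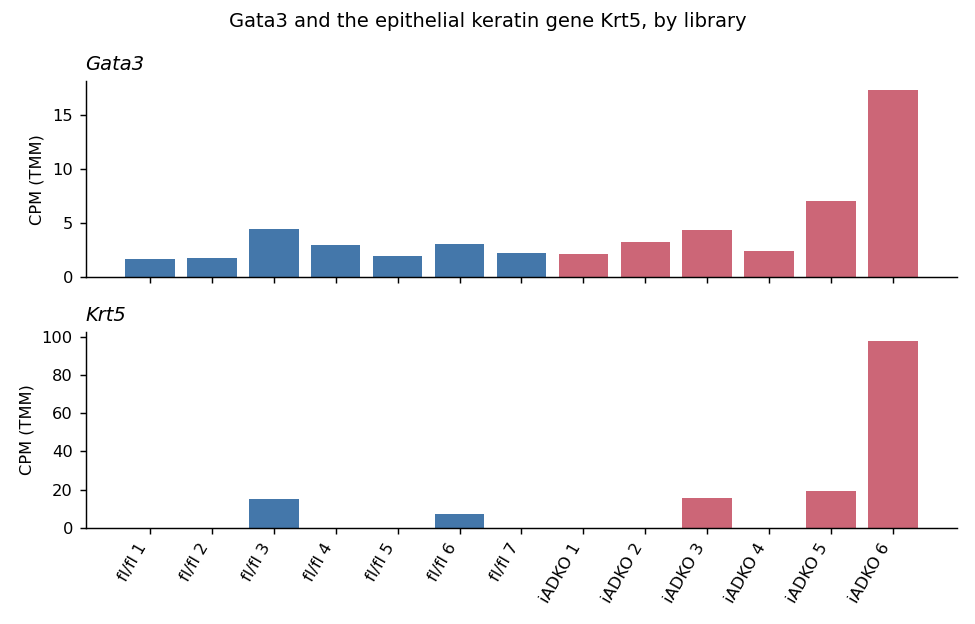
Gata3 (upper panel) and the epithelial keratin gene Krt5 (lower panel) in each of the 13 libraries, in TMM-normalized CPM on linear axes from 0, with fl/fl in blue and iADKO in red. Gata3 reached 17.3 CPM in iADKO 6 and 7.07 in iADKO 5, where Krt5 was 97.7 and 19.5.

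Foxp3, which defines Tregs, rose from a low level. Libraries labelled fl/fl held 0.575 to 1.45 CPM with a median of 0.993, and those labelled iADKO 1.35 to 2.47 with a median of 1.71. In counts this was 10 to 27 and 28 to 53 reads per library. On the CPM scale 4 of 6 iADKO libraries lay above all fl/fl libraries, and iADKO 3 and 5 lay below fl/fl 4. The log2 fold change of Foxp3 (ENSMUSG00000039521, chrX:7439883-7461484, plus strand) was 0.83 ± 0.22 (SE, adjusted p = 0.0128, edgeR; exact permutation p = 0.00408). It was called with each of the 13 libraries left out (0.71 to 0.94) and without the 5 libraries with Krt5 (1.12, adjusted p = 0.0490, edgeR). In the 2 animal-number ranges it was higher by 0.45 and 1.17. The annotated span of Foxp3 overlaps Ppp1r3f and Ccdc22 on the other strand, with 359 and 30 counts over all libraries beside 350 for Foxp3, and whether reads were counted by strand is not given in the sources used here.

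Il7r, the IL-7 receptor chain on which T cells and ILC2s depend, showed the largest change of the members that passed. It ran from 9.37 CPM through a median of 14.0 to 23.8 in fl/fl, and from 20.6 through 27.0 to 33.6 in iADKO. Only iADKO 6 lay within the fl/fl range, below fl/fl 5, and the other 5 were above it. Means were 14.9 ± 5.28 (SD, n = 7) and 27.7 ± 5.05 (SD, n = 6), a log2 fold change of 0.90 ± 0.20 (SE, adjusted p = 0.00614, edgeR; exact permutation p = 0.0035) for the gene at chr15:9505874-9530262 (ENSMUSG00000003882, minus strand). The call held with each of the 13 libraries left out, from 0.81 to 1.05. Without the 5 libraries with Krt5 the value was 0.84, and the call was lost (adjusted p = 0.0781, edgeR). The differences within animal-number ranges were 0.52 and 1.27.

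Klrg1, an inhibitory receptor of mature ILC2s, Tregs, natural killer (NK) cells and effector T cells, also rose. Its values were 0.878 to 2.10 CPM in fl/fl (median 1.27) and 1.51 to 2.60 in iADKO (median 2.22), with 4 of 6 iADKO libraries above all fl/fl libraries. The gene (ENSMUSG00000030114, chr6:122246981-122259914, minus strand) had a log2 fold change of 0.64 ± 0.21 (SE, adjusted p = 0.0324, edgeR; exact permutation p = 0.0117). This was the least stable of the calls. It was lost when fl/fl 1, 2, 3 or 6 or iADKO 2, 3 or 4 was left out, over log2 fold changes of 0.56 to 0.77 for all 13, with the animal-number range as a block (0.61, adjusted p = 0.136, edgeR), and without the 5 libraries with Krt5 (0.43, adjusted p = 0.353, edgeR). Within the animal-number ranges the difference was 0.55 and 0.61.

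Icos, a costimulatory receptor of activated T cells and ILC2s, did not pass. The fl/fl libraries held 1.27 to 3.29 CPM (median 2.13), and the iADKO libraries 2.30 to 3.49 (median 3.03), with 1 of 6 above all fl/fl libraries. Its log2 fold change was 0.36 ± 0.21 (SE, adjusted p = 0.197, edgeR; exact permutation p = 0.0915) at chr1:61017086-61039479 (ENSMUSG00000026009, plus strand). The 2 animal-number ranges gave -0.11 and 0.74. Icosl, the gene of its ligand, rose from 25.4 ± 1.44 to 32.5 ± 3.40 CPM (log2 fold change 0.36, adjusted p = 0.00179, edgeR), and it was named here after its values were seen, as the partner of a member.

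**Figure D2:**
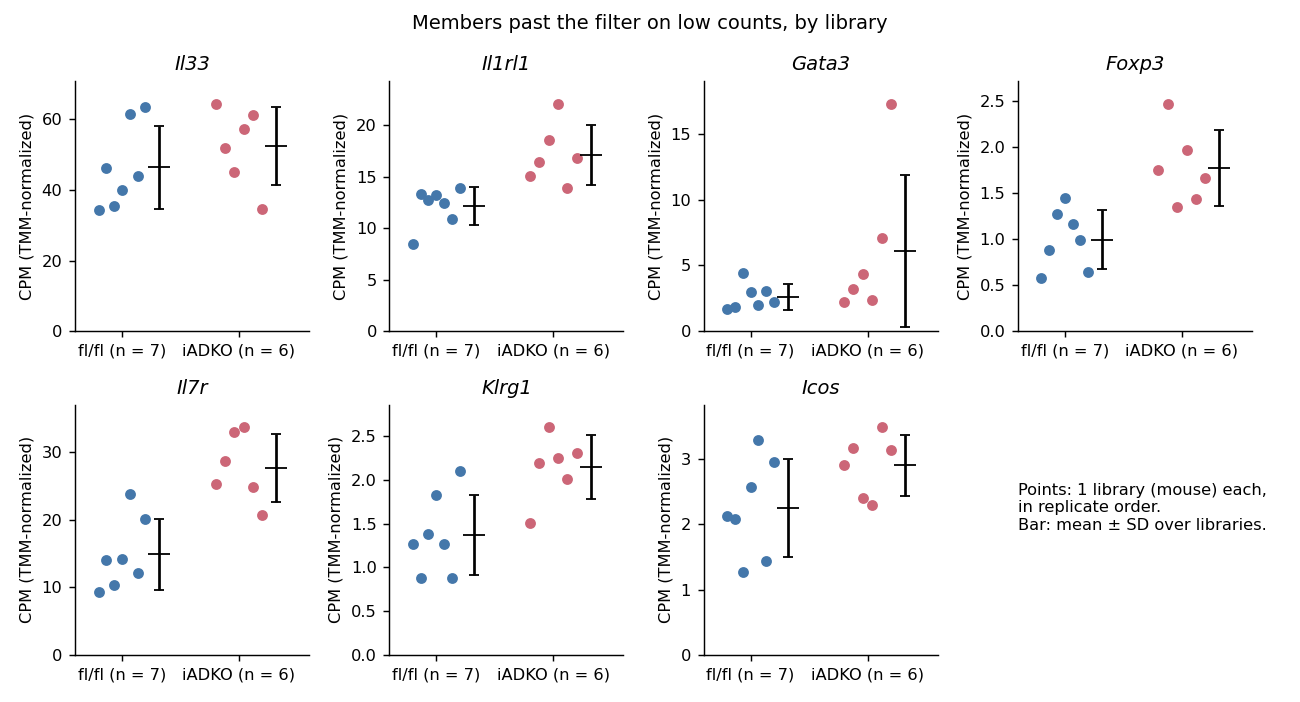
TMM-normalized CPM of the 7 members past the filter, 1 point per library, with fl/fl (n = 7) in blue and iADKO (n = 6) in red and the mean ± SD beside them. Il7r, Il1rl1, Foxp3 and Klrg1 sit higher in iADKO with an overlap of a few libraries, while the Il33 groups cover the same range.

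**Figure D3:**
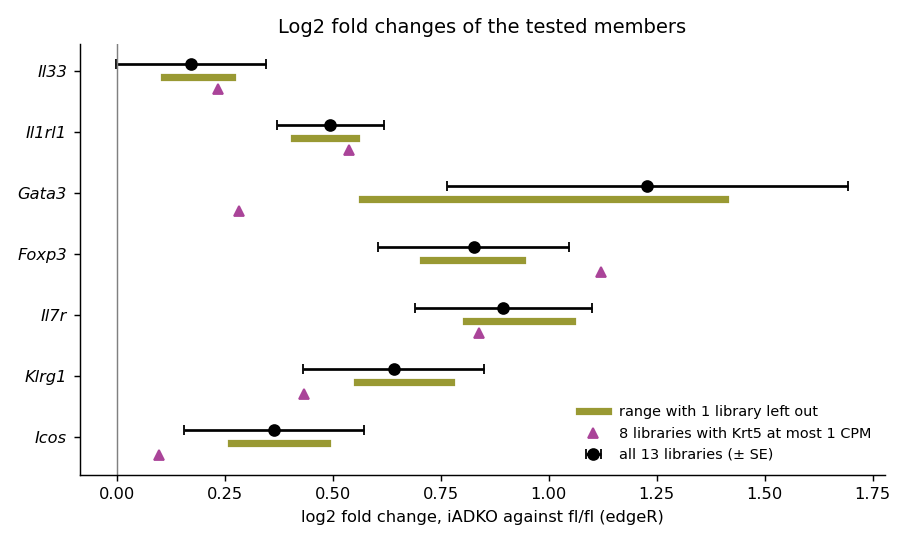
Log2 fold change of each tested member, iADKO against fl/fl, with all 13 libraries (black point ± SE), the range of values with 1 library left out (bar) and the value in the 8 libraries with Krt5 at most 1 CPM (triangle). Gata3 falls from 1.23 to 0.28 without the libraries with Krt5, and Il1rl1 stays between 0.41 and 0.55 when any 1 library is left out.

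The effector cytokines had very few counts in these libraries. Il5, the eosinophil growth factor, had 13 counts in all, in 5 of 7 fl/fl and 4 of 6 iADKO libraries, with at most 3 in a library. Il13, which acts on macrophages and epithelia, had 16 counts, and its highest was 2. Areg, the epidermal growth factor family ligand amphiregulin, had 17, of which 10 were in iADKO 6, the library with the most Krt5. A floor of 3 counts corresponds to 0.140 to 0.173 CPM here, and every library of Il5 and Il13 and 12 of 13 for Areg were at or under it.

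The ratio of iADKO to fl/fl for Il5 was 0.878 (exact 95% interval 0.244 to 3.05, counting error only), or 0.525 without iADKO 6, and for Il13 it was 0.797 (0.252 to 2.40). For Areg the ratio was 2.46 (0.806 to 8.91), and without iADKO 6 it was 0.490 (0.0466 to 2.99). These intervals include both lower and higher levels, so a difference was not detectable at this depth. The mean log2 CPM did not separate the groups either (exact permutation p = 0.825, 0.497 and 0.763). The Il5 gene (chr11:53611621-53615933, plus strand) overlaps Gm12216 on the other strand, which had 2009 counts, so its few reads are uncertain. Il13 is at chr11:53522151-53525529 (minus strand) and Areg at chr5:91287451-91296291 (plus strand).

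**Figure D4:**
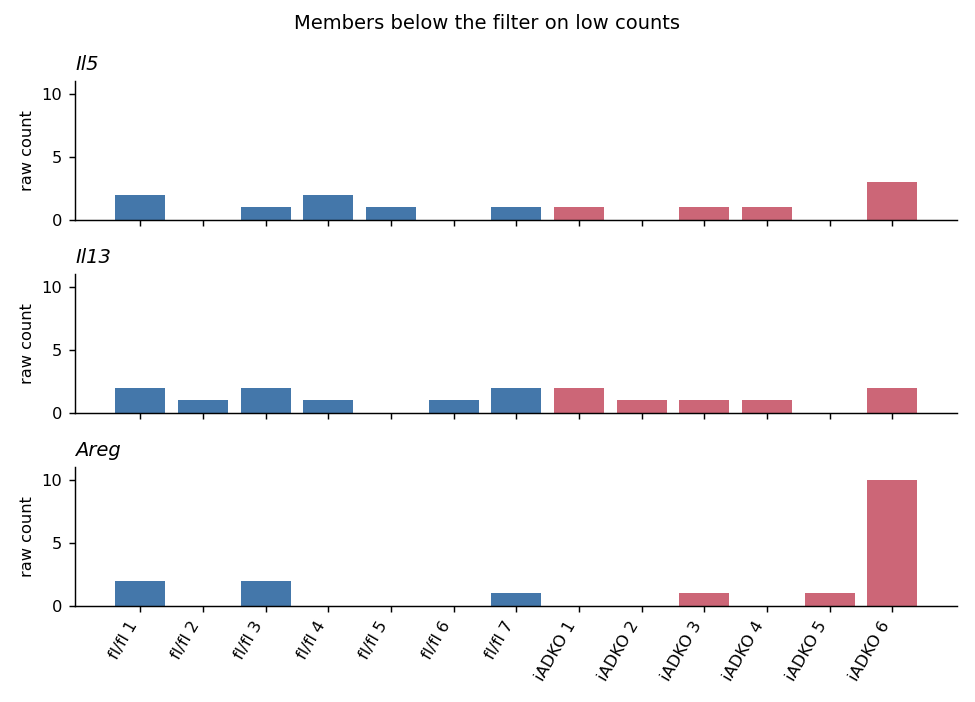
Raw counts of Il5, Il13 and Areg in each of the 13 libraries, with fl/fl in blue and iADKO in red. No library had more than 3 counts of Il5 or 2 of Il13, and 10 of the 17 Areg counts were in iADKO 6.

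Per kilobase of annotated exon the members differed widely in level. In fl/fl, Il33 led with 7.52 CPM per kb ± 1.90 (SD, n = 7), then Il7r with 3.19 ± 1.13 and Il1rl1 with 1.76 ± 0.270. Klrg1, Icos and Gata3 followed at 0.666 ± 0.221, 0.656 ± 0.218 and 0.570 ± 0.214, whose spreads overlap. Foxp3 was lower, at 0.218 ± 0.0704, and Il13, Il5 and Areg were lowest, at 0.0595 ± 0.0357, 0.0357 ± 0.0296 and 0.0332 ± 0.0447, not separated from each other. In iADKO the order was the same at the top, with 8.48 ± 1.80 for Il33, 5.93 ± 1.08 for Il7r and 2.48 ± 0.422 for Il1rl1 (SD, n = 6).

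Genes of IL-33 signalling were compared next. Of these 14 genes, which include the receptor genes Il1rap and Sigirr, 4 were higher, 1 lower and 9 did not pass. The median log2 fold change was 0.11, and over all genes tested 14.1% were higher and 16.3% lower. The kinase gene Irak2 rose from 49.4 ± 3.95 to 61.6 ± 5.23 CPM (log2 fold change 0.32, adjusted p = 0.00345, edgeR). The adaptor Myd88 (0.29), the NF-kappaB subunit Nfkb1 (0.23) and the inhibitory Irak3 (0.23) passed as well, by less. Il1rap, the partner chain of ST2, was 8.23 and 10.3 CPM on average and did not pass (0.32, adjusted p = 0.153, edgeR). The kinase gene Map3k7, the 1 that fell, changed by -0.12. The number of higher genes was 1 when any of 9 single libraries was left out (fl/fl 1, 2, 3, 4 or 6 or iADKO 2, 3, 4 or 5), 2 without iADKO 1, and 0 without the 5 libraries with Krt5 or with the animal-number range as a block. Irak2 was called with every single library left out.

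A broader list held type 2 cytokine and receptor genes beside other cytokine, receptor and STAT genes. Of 18 tested, 9 were higher and 1 lower, with a median log2 fold change of 0.36. Over all genes tested 14.1% were higher and 16.3% lower. The higher genes were Il10, Icosl, Csf2rb, Crlf2, Il2rg, Il2ra, Il2rb, Egfr and Stat6. Of these, Il10, Il2ra and Il2rb are counted again among the Treg genes below. Il4, Il4ra, Il13ra1, Il5ra, Il17rb and Tslp did not pass (adjusted p of 0.104 to 0.347, edgeR), named after their values were seen. Il10, an anti-inflammatory cytokine, was higher at under 1 CPM in both groups (0.472 ± 0.202 and 0.901 ± 0.388, log2 fold change 0.92, adjusted p = 0.0487, edgeR). Its call ended in 8 of 13 single omissions. By RT-qPCR at the same time after tamoxifen, the study describes elevated Il10 in isolated knockout adipocytes. It describes minor inflammatory changes in the stromal vascular fraction and few in whole fat. Which cells held the Il10 RNA counted here was not tested. The receptor chains Il2rg (0.54), Il2rb (0.45) and Csf2rb (0.42) rose and were called with every single library left out. Stat5a, a transcription factor that these chains activate, fell from 93.7 ± 8.28 to 72.2 ± 6.75 CPM (log2 fold change -0.38, adjusted p = 0.0019, edgeR), and is named as the only gene of the list that fell. Without the 5 libraries with Krt5, 2 genes of this list were higher and 1 lower, the same numbers as with the animal-number range as a block.

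Of 13 tested genes that mark or build ILC2s, 2 were higher, 1 lower and 10 did not pass. Over all genes tested 14.1% were higher and 16.3% lower, so by these counts the list did not stand out. Hpgds, a prostaglandin D synthase that mast cells also express, rose from 22.0 ± 6.98 to 37.7 ± 7.58 CPM (log2 fold change 0.77, adjusted p = 0.00985, edgeR). Id2, a regulator needed by all innate lymphoid cells and active in many other cells, rose from 29.1 ± 6.84 to 43.7 ± 4.60 CPM (0.58, adjusted p = 0.00672). Rora, which ILC2s need and which other cells of fat express, fell from 88.9 ± 11.1 to 70.8 ± 3.26 CPM (-0.33, adjusted p = 0.0052). All 3 were called with each single library left out. Without the 5 libraries with Krt5, Rora was still called and neither of the others was, and with the animal-number range as a block 1 was higher and 1 lower.

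Of 16 tested Treg genes 7 were higher and 1 lower, with a median log2 fold change of 0.36. Over all genes tested 14.1% were higher and 16.3% lower. The higher genes were Tnfrsf4, Tnfrsf18, Batf, Entpd1, Il10, Il2ra and Il2rb. Of these, Il10, Il2ra and Il2rb also stand in the list of cytokine and receptor genes, so the counts of the 2 lists are not separate. The lists were not tested against each other or against the share over all genes. The tumor necrosis factor receptors Tnfrsf4 (OX40) and Tnfrsf18 (GITR), both abundant on Tregs and on activated T cells, rose by 0.83 and 0.78 on the log2 scale, from 0.884 ± 0.274 to 1.59 ± 0.331 CPM and from 1.41 ± 0.342 to 2.44 ± 0.492 CPM. Batf, a transcription factor of adipose Tregs, rose from 1.78 ± 0.843 to 3.22 ± 0.457 CPM (0.85, adjusted p = 0.0262, edgeR), a call that 5 of 13 single omissions ended. The inhibitory receptor genes Ctla4 (0.71, adjusted p = 0.113, edgeR) and Tigit (0.76, adjusted p = 0.0501) did not pass, and Ikzf2, the gene of the Treg factor Helios, was nearly level (0.04, adjusted p = 0.829). The integrin gene Itgae fell by 0.43 on the log2 scale, and the call was lost without fl/fl 2, 6 or 7 or iADKO 1, 2, 3, 4 or 5. The last 4 genes were named after their values were seen. Without the 5 libraries with Krt5, 1 gene of the list, Tnfrsf18, was called higher, and with the animal-number range as a block 5 were.

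Eosinophils and alternatively activated macrophages are the cells that IL-5 and IL-13 sustain. Of 7 eosinophil genes tested 4 were higher and 0 lower, led by the granule protein gene Prg2 (2.49 ± 1.13 to 6.84 ± 2.19 CPM, log2 fold change 1.45, adjusted p = 0.00341, edgeR), with Siglecf at 0.57, Ccr3 at 0.54 and Alox15 at 0.48. Siglecf and Ccr3 were no longer called in 9 and 3 of 13 single omissions. The count fell to 2 without iADKO 1 or 3, to 2 with the animal-number range as a block, and to 0 without the 5 libraries with Krt5. Of 7 type 2 macrophage genes 4 were higher and 0 lower. Beside both lists, 14.1% of all genes tested were higher and 16.3% lower. Ccl22, a chemokine that draws Tregs and type 2 T cells, rose from 1.76 ± 0.497 to 5.61 ± 0.926 CPM (1.67, adjusted p = 0.000162, edgeR) and was called under every alternative, as 1 of 2 genes of the list that were still called without the 5 libraries with Krt5. Retnla (0.54), Mrc1 (0.39) and Clec10a (0.33) were the others, with Clec10a not called in 9 of 13 single omissions, and none of these was called with the animal-number range as a block.

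Some general lymphocyte markers were higher as well, beside 14.1% of all genes tested that were higher and 16.3% that were lower. Of 11 T cell markers 5 were higher, 0 lower and 6 did not pass. Among the higher ones were Cd4 (6.34 ± 1.32 to 10.2 ± 1.78 CPM, log2 fold change 0.68), Cd3d (0.63), Cd2 (0.48) and Lck (0.42). Cd3e (0.25, adjusted p = 0.237, edgeR) and Trbc2 (0.18, adjusted p = 0.431, edgeR) were among those that did not pass. The summed level of the 11 T cell markers was 31.7 to 50.0 CPM in the 7 fl/fl libraries and 52.4 to 61.7 in the 6 others, without overlap. The summed type 2 macrophage genes did not overlap either, at 649 to 830 CPM in fl/fl and 865 to 1054 in iADKO. Of single genes tested, 2.71% lay wholly higher in libraries labelled iADKO, and no such share was computed for sums. Of 8 NK cell markers 5 were higher, among them Eomes (0.99), Ncr1 (0.64), Gzmb (0.64) and Klrd1 (0.62), with summed levels of 8.91 to 16.9 and 18.0 to 22.5 CPM that did not overlap either. Ncr1 and Gzmb were no longer called in 7 and 9 of 13 single omissions. The NK count fell to 2 without fl/fl 1 or iADKO 3 and to 3 without fl/fl 2 or 3 or iADKO 2 or 4. Of the T cell markers 0 and of the NK cell markers 1 were called without the 5 libraries with Krt5, and 3 of each list with the animal-number range as a block. Every marker of both lists had counts.

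**Figure D5:**
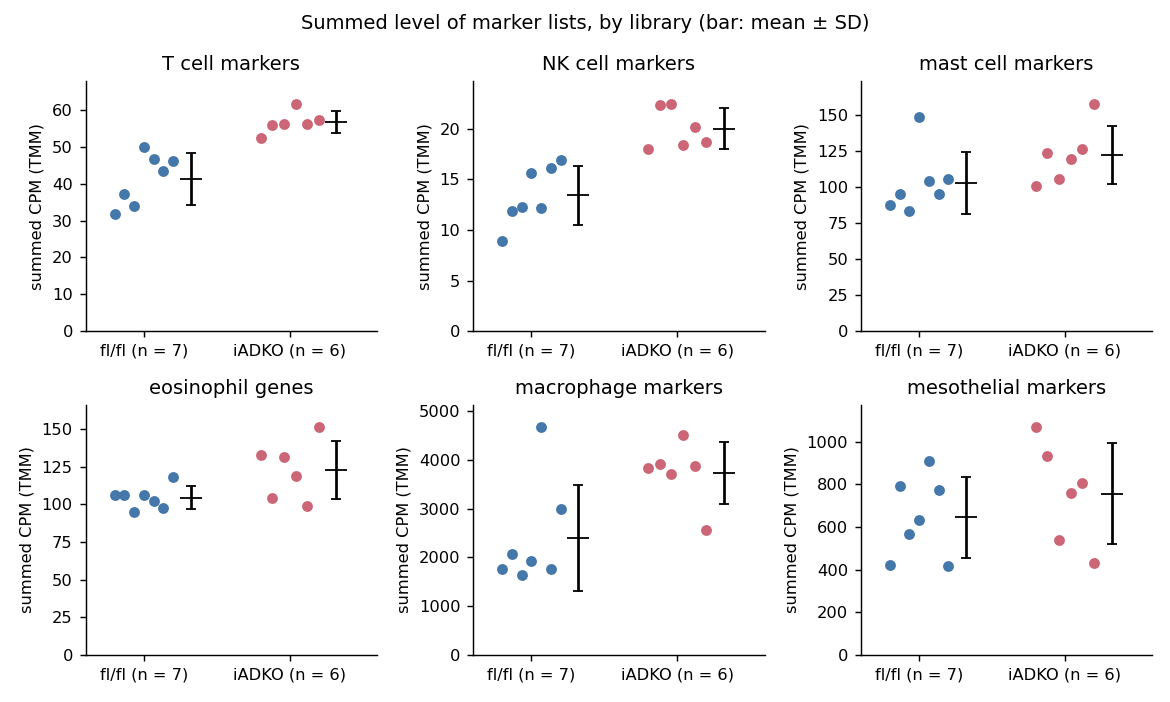
Summed TMM-normalized CPM of 6 marker lists, 1 point per library, with fl/fl (n = 7) in blue, iADKO (n = 6) in red and the mean ± SD beside them. T cell and NK cell markers do not overlap between the groups (31.7 to 50.0 against 52.4 to 61.7 CPM, and 8.91 to 16.9 against 18.0 to 22.5 CPM), and the other 4 lists do. The type 2 macrophage genes, not shown, do not overlap either.

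Members were set against these lists in log2 CPM. Relative to the mean of the T cell markers, Foxp3 was higher by 0.35 (exact permutation p = 0.118, adjusted 0.414 over the 7 comparisons) in libraries labelled iADKO, with 5 of 6 above the fl/fl mean. Il7r was higher by 0.49 relative to the same markers (exact permutation p = 0.0251, adjusted 0.175), with 6 of 6 above the fl/fl mean. Gata3 differed by 0.42 (exact permutation p = 0.401, adjusted 0.826) and Icos by -0.04 (exact permutation p = 0.826, adjusted 0.826). Klrg1 differed by 0.07 relative to the NK cell markers (exact permutation p = 0.766, adjusted 0.826). None of these passed, which does not show that the members and the lists changed alike. Whether cell numbers account for the members' levels was not tested. The study also ran flow cytometry on this depot at the same time after tamoxifen. It describes no difference in leukocytes, in macrophages, or in the identity of macrophages and T cells. NK cells, Tregs, eosinophils and mast cells are not among the cells named for that measurement.

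Markers of other cell types differed too, beside 14.1% of all genes tested that were higher and 16.3% that were lower. Of 6 B cell markers 3 were higher (Cd22 0.99, Cd79b 0.79 and Cd79a 0.66 on the log2 scale), but 1 when fl/fl 1, 2, 3, 4 or 6 or iADKO 2, 4 or 5 was left out, and 0 without the 5 libraries with Krt5. Of 9 macrophage markers 4 were higher (Cd68 1.06, Adgre1 0.82, Fcgr1 0.70 and Csf1r 0.49), 0 of them with the animal-number range as a block, with summed levels of 1629 to 4665 CPM against 2562 to 4509. Csf1r was no longer called in 11 of 13 single omissions (it held without fl/fl 5 or iADKO 6), and 1 macrophage marker was called without the 5 libraries with Krt5. All 9 adipocyte markers were lower, with a median log2 fold change of -0.88, among them Pck1 (-1.19), Cidec (-1.11), Lep (-1.10) and Slc2a4 (-1.04). Pck1 was not called without fl/fl 4 or iADKO 1 or 4, nor Lep without iADKO 4. Their summed level was 17740 to 26661 CPM against 10683 to 19398, and the tissue was thus fat by its defining genes in every library. Of 9 endothelial markers 2 were lower, Kdr (-0.48) and Cdh5 (-0.29). Of 4 tested lymph node stroma markers 1 was higher, Cxcl13, a B cell chemokine (0.72), and the summed levels overlapped (28.7 to 63.5 and 35.0 to 66.3 CPM). How far a smaller share of adipocyte RNA raised the share of other cells' genes was not tested.

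The genes whose levels followed each member most closely across the 13 libraries, with the group means subtracted, were found among 13835 genes. For Il33 they were Star (Pearson r = 0.97, Spearman rho = 0.99), the gene of a cholesterol carrier of steroid-making cells, Kif26b (0.93) and Plscr2 (0.93). For Il1rl1 they were Ighv7-3, an immunoglobulin segment (r = 0.87), Trac, the T cell receptor alpha constant gene (0.81), and 1700123O20Rik (0.81), which were 0.71, 0.63 and 0.65 without the 2 most distant libraries. Gata3 was followed most closely by Mal (0.96), a membrane protein gene of epithelia, myelin and T cells, Ptpru (0.95) and Plekhh1 (0.95). For Il7r these genes were Spcs3 (0.97), Gas2l3 (0.96) and Cmtm7 (0.96), and for Foxp3 they were Crebbp (0.88), Fbf1 (0.87) and Mypop (0.83). Klrg1 had Sec61b (0.85), Rxrb (0.83) and Pde6d (0.83), and Icos had Mrgbp (0.84), Mpzl1 (0.83) and Mdga1 (0.82). These are the highest of many correlations over few libraries that share depth, tissue makeup and normalization, and are given as a description.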

How the data were processed

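Bulk RNA-Seq of whole pmWAT was analyzed in 13 libraries, 7 labelled fl/fl and 6 labelled iADKO, grouped by their sample labels, which give 1 batch date. Files deposited for the series hold unnormalized counts per gene and DESeq2 rlog values of these counts on a log2 scale. Per the submitters' processing notes and the methods, paired reads of strand-specific libraries were checked with FastQC 0.12.1 and aligned with STAR 2.7.11a to mm39. The counting tool, its strand setting, the annotation and the DESeq2 design are not given in the sources used here. Where counting dropped reads shared by overlapping genes, such genes are undercounted.

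Identifiers were named by GENCODE vM39 (33184 of 33618 found), and promoter letters were read from the GRCm39 genome. Low genes were removed by filterByExpr of edgeR 4.0.16 (R 4.3.3), TMM factors were computed, and counts under the 2 labels were fitted by its quasi-likelihood method with robust dispersions, with p-values adjusted by the Benjamini-Hochberg method at 0.05. Log2 CPM used a prior count of 2. For each member an exact permutation test, two-sided, was run on mean log2 CPM over 1716 splits, whose smallest p is 0.000583. Same-label libraries differed by chi-square values of 8.56 to 97.3 per degree of freedom, so none was a copy of another. The fitting steps were tested on simulated data.

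The members and the 17 lists were chosen with earlier results of these data known. Some genes stand in several lists. Named genes were all members, up to 4 called genes per list with the largest change, the 3 nearest genes per tested member, and Lmna. Other named genes were chosen after their values were seen. Alternatives were DESeq2 1.42.0 size factors and Wald test, 2 other count filters, the replicate number or the animal-number range as a block, limma 3.58.1 on the deposited rlog values, each library left out and, chosen after seeing the data, the libraries with Krt5 left out. The animal-number ranges were cut here from the numbers in the library names and are not a grouping given by the labels. Depth is the reads counted on genes, and intervals from counts cover counting error only.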

Additional observations from a re-analysis of the deposited data

Results flagged for a closer look

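Of 54 groups of libraries tested for 1 value far from the rest, 5 were marked, and chance marks about 1 in 20. Of these, 4 concern iADKO 6, the library with the most Krt5. Its Gata3 level was 17.3 CPM, and the next in its group was 7.07. It held 3 counts of Il5, with 1 in the next library, and 10 counts of Areg, with 1 in the next. Its summed epithelial markers were 271 CPM, with 79.5 in the next. The remaining mark was the summed level of the mast cell markers in fl/fl 4, 148 CPM, with 105 in the next library of its group.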

How the results depend on the processing

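Among the 7 tested members, no result changed direction under the alternatives run. Foxp3 kept its call under all of them, and Il33 and Icos passed under none. Il1rl1 and Il7r lost theirs only without the 5 libraries with Krt5 (log2 fold changes 0.54, adjusted p = 0.0810, and 0.84, adjusted p = 0.0781, edgeR), where 8 libraries were left. Klrg1 lost its call there (0.43, adjusted p = 0.353), in the unfiltered table (0.63, adjusted p = 0.0581) and with the animal-number range as a block (0.61, adjusted p = 0.136). Gata3 passed in the DESeq2 Wald test (1.22, adjusted p = 0.0207). Over all genes, 2367 were higher and 2737 lower. The animal-number block gave 784 and 1202, and the libraries without Krt5 gave 478 and 1165, with 1 member called in place of 4. Under that block fl/fl 6 and 7 and iADKO 3 and 5, whose ranges hold 1 label each, add nothing to the comparison. As iADKO 3 and 5 are also among the libraries with Krt5, both alternatives rest on fewer libraries, and range and label are partly confounded. Of the genes in the 17 lists, 52 were higher and 15 lower, against 21 higher with the animal-number block and 7 higher and 9 lower without the libraries with Krt5. The 51 list genes named by rule kept their direction in all 1068 values recomputed and lost their call in 238. Without those libraries 9 of the 51 were called.

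With 1 library left out, 1769 to 3319 genes were higher and 2216 to 3285 lower, with 3 to 5 members and 35 to 62 list genes called higher and 12 to 17 list genes lower. Log2 fold changes ranged from 0.11 to 0.27 for Il33, 0.41 to 0.55 for Il1rl1, 0.57 to 1.41 for Gata3 (called without iADKO 1 or 4), 0.71 to 0.94 for Foxp3, 0.81 to 1.05 for Il7r, 0.56 to 0.77 for Klrg1 and 0.27 to 0.49 for Icos. Whether the replicate numbers pair the libraries was not settled. Same-number residuals correlated at -0.03 to 0.22 (mean 0.11), other pairs at a mean of -0.02, and 3 of 6 numbers correlated best with their own. In a fit with a replicate block, which drops fl/fl 7, 2379 genes were higher and 2454 lower, and no member changed its call. The cause of these shifts was not tested. Members under about 3 counts per library cannot be compared at this depth.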
